A study of Mus musculus with 15 samples.

Results

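The Kruppel-like factors are a family of zinc finger transcription factors, and 10 of them are described here in mouse pancreas: Klf2, Klf3, Klf4, Klf5, Klf6, Klf7, Klf9, Klf10, Klf13 and Klf15. They were chosen by name with earlier results of these data known. Their probes were found by matching the array's RefSeq accessions to these genes. They are 10 of 20660 genes named on the array. Each had 1 probe among 55681 probes, and all 10 probes were among the 42187 kept for testing because they were well above background on at least 3 arrays. Each of the 10 was in fact well above background on 15 of 15 arrays, and none was saturated.

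Kruppel-like factors share zinc fingers at the carboxyl end of the protein, with which they bind GC-rich and CACCC sequences, and they differ in the amino-terminal part that recruits activators or repressors. Several are immediate early or stress-response genes whose transcripts change within hours of a stimulus, while others follow hormones such as glucocorticoids. In the exocrine pancreas Klf4 and Klf5 are known from work on acinar-to-ductal metaplasia and pancreatic cancer in mice.

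Messenger RNA of whole pancreas was measured on Agilent arrays labelled with Cy3, with 1 array per animal, in male C57BL/6J mice. There were 4 transgenic (TG) mice given cerulein, 3 TG mice given saline, 4 wild type (WT) mice given cerulein and 4 WT mice given saline. All were fasted for 18 h and killed 3 h after 1 intraperitoneal injection of 50 µg/kg cerulein, a cholecystokinin analogue that induces acute pancreatitis, or of saline, although saline mice are labelled 0 h. The labels name neither the transgene nor its promoter, and the title of the series alone ties the mice to betacellulin (Btc) and to ERBB4, so what drives the transgene and in which cells is not known here.

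The 75th percentile of signal ranged over the 15 arrays from 160 to 557 intensity units, and 54.9% to 76% of probes were well above background. Acinar markers, 8 of 8 measured, had a mean log2 level of 8.22 to 9.13 in TG cerulein and 9.07 to 9.73 in TG saline arrays, and 8.23 to 9.42 in WT cerulein and 9.24 to 9.96 in WT saline arrays. The arrays lay on 3 slides, and the slide with 1 TG and 2 WT cerulein arrays held no saline array, so results are given also with slide in the model. The probe for Btc did not separate the genotypes, with a log2 difference between TG and WT of 0.48 ± 0.45 (SE, limma adjusted p = 0.821) after cerulein and 0.54 ± 0.48 (SE, limma adjusted p = 1) after saline. It was not well above background on 1 of the TG saline and 3 of the WT saline arrays, and whether the probe can report the transgene is not known.

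Levels below are log2 signal minus the array's own 75th percentile, so 0 is the level of that percentile and 1 unit is a doubling. A difference is cerulein minus saline or TG minus WT on that scale, and a gene was called at a limma adjusted p below 0.05, with p adjusted by Benjamini-Hochberg over all 42187 probes. Since tissue was whole pancreas, fewer cells of a type and less RNA per cell cannot be told apart.

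The sequences upstream of the genes are shown first for those whose transcripts moved after cerulein. Of the 10 genes, 8 had a window in the RefSeq promoter table of build GRCm38.p6, all except Klf5 and Klf10. The 250 bases before the annotated start are given for Klf6, Klf7 and Klf13, called higher after cerulein in both genotypes, and for Klf15, called lower in WT. Capitals mark a cyclic AMP response element half-site (TGACG, or CGTCA on the other strand) or an E-box (CACGTG).

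Klf6, chr13:5861239-5861488, plus strand: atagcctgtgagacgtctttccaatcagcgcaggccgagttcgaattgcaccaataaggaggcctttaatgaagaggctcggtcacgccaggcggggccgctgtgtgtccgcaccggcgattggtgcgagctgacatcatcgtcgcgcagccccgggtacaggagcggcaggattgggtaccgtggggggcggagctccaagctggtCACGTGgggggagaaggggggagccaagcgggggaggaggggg
Klf7, chr1:64121390-64121639, minus strand: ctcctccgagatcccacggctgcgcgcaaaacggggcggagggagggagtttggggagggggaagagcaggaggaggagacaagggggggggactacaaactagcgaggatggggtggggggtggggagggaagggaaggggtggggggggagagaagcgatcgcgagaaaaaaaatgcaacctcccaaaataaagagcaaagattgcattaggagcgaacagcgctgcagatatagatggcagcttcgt
Klf13, chr7:63938916-63939165, minus strand: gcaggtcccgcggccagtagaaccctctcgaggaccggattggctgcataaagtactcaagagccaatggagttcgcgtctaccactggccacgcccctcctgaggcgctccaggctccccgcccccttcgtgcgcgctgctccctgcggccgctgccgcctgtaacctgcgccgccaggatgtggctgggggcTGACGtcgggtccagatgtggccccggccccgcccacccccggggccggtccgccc
Klf15, chr6:90462326-90462575, plus strand: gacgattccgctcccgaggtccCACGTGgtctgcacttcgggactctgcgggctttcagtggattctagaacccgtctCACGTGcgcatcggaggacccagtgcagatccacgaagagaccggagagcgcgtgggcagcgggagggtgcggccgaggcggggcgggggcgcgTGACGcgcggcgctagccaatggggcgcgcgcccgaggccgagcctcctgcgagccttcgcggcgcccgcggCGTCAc

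The windows of Klf7 and Klf15 lie inside the span annotated for the gene, so other starts of these genes lie upstream. Both strands were searched, and a motif that reads the same on both was counted once per position. The half-site was found in the windows of 5 of 8 genes (Klf2, Klf4, Klf9, Klf13 and Klf15) and in 17.8% of all 32851 windows. The E-box was found in 3 of 8 (Klf4, Klf6 and Klf15) against 6.02% of all windows, and the GC box (GGGCGG) in 7 of 8, all but Klf9, against 32.7%. The Klf6 window held 4 CCAAT boxes (CCAAT), a motif present in 33.8% of all windows and in 4 of the 8. The AP-1 pattern used (TGANTCA with any base at N, 6.75% of all windows) was matched for Klf9 alone, by TGAATCA. A MEF2 box (2.92%) was found for Klf2 alone, and no window of the 8 held a CArG box (1.47%) or a TATA box (TATAAA, 12.4%). The motifs were chosen with the genes' responses known, and a match describes letters only.

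Cerulein against saline was the comparison in which these genes differed. In TG mice 4 of the 10 were called higher and 0 lower, against a background of 3.42% of all probes called higher and 2.9% called lower. In WT mice 4 were called higher and 1 lower, against 4.14% and 5.43% of all probes. Klf5, Klf6, Klf7 and Klf13 were called higher in both genotypes, and Klf15 was called lower in WT. The 2 comparisons use different animals. The median difference of the 10 was 0.94 in TG and 0.66 in WT, beside -0.04 and 0.04 over all probes. The 10 genes were chosen with earlier results of these data known, so the counts and medians beside all probes do not test the family.

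**Figure D1:**
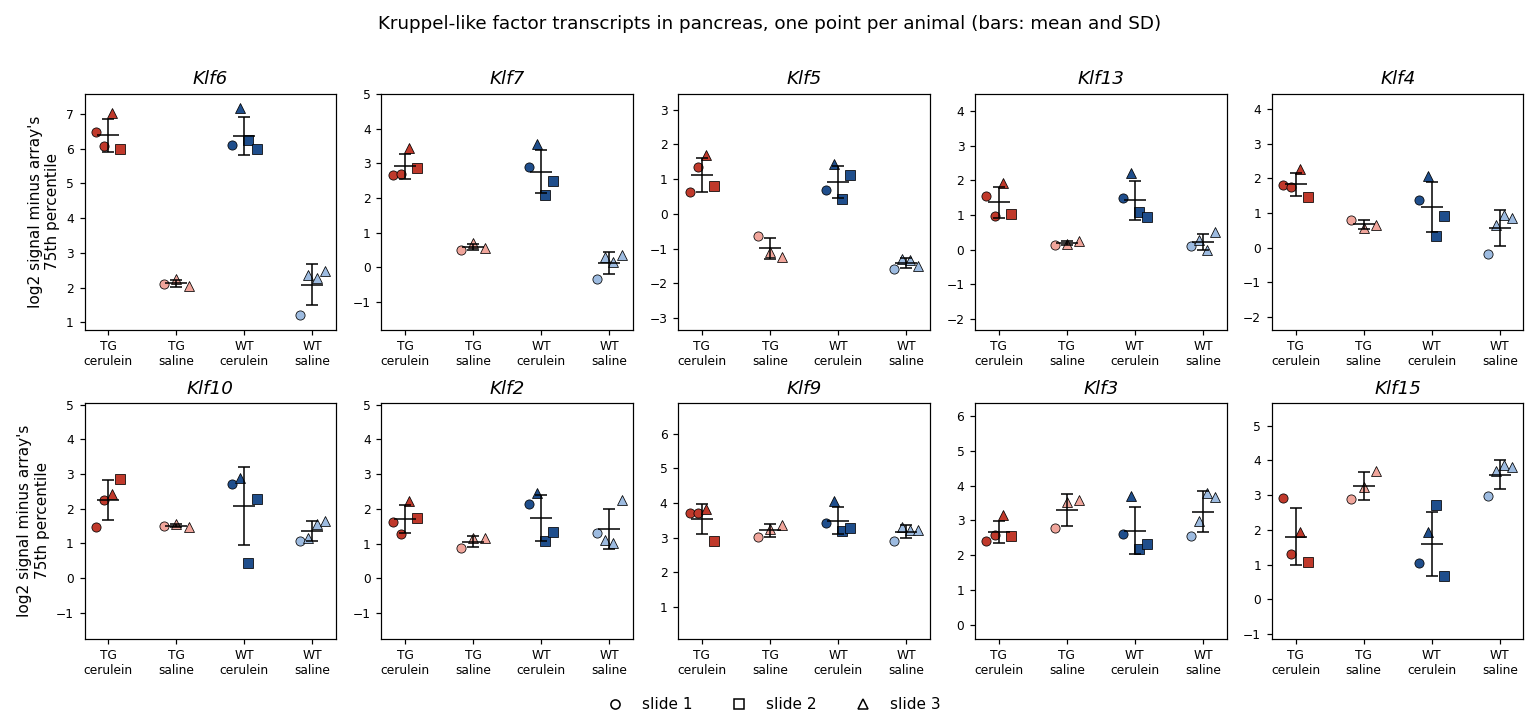
Level of each of the 10 transcripts (log2 signal minus the array's 75th percentile, vertical axes of equal span) in the 4 groups, with 1 point per animal, marker shape for the slide and bars for mean and SD. Klf6, Klf7, Klf5 and Klf13 sit apart in cerulein and saline mice of both genotypes, with Klf6 at 5.98 to 7.04 in TG cerulein and 2.04 to 2.24 in TG saline mice.

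Values are given in the order of the animal numbers, which are 13 to 16 for TG cerulein, 2 to 4 for TG saline, 9 to 12 for WT cerulein and 5 to 8 for WT saline mice. Klf6, an early-response factor that was first described as a core promoter element binding protein, differed most. Its level was 6.47, 6.08, 7.04 and 5.98 in TG cerulein mice and 2.11, 2.24 and 2.04 in TG saline mice. It was 6.1, 7.18, 6.24 and 5.98 in WT cerulein mice and 1.2, 2.37, 2.28 and 2.49 in WT saline mice. Every cerulein mouse was far above every saline mouse of its genotype, and 1 WT saline mouse stood below the other 3. Klf6 rose 19.2-fold in TG (log2 difference 4.26 ± 0.37 SE, limma adjusted p = 1.09e-05) and 19.6-fold in WT (4.29 ± 0.34 SE, limma adjusted p = 3.66e-06). Only 0.104% of all probes in TG and 0.126% in WT had a difference of that size or more in either direction. Klf6 lies at chr13:5861489-5870393 (GRCm38.p6).

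Klf7, a factor known for its part in neuronal development and in adipocyte differentiation, lies at chr1:64029448-64122345. Its level was 2.65, 2.7, 3.44 and 2.85 in TG cerulein mice and 0.51, 0.69 and 0.56 in TG saline mice. It was 2.9, 3.56, 2.09 and 2.49 in WT cerulein mice and -0.35, 0.3, 0.15 and 0.36 in WT saline mice. The groups did not overlap in either genotype, and every cerulein mouse was above every saline mouse of its genotype. Klf7 rose 5-fold in TG (2.32 ± 0.32 SE, limma adjusted p = 0.000559) and 6.26-fold in WT (2.65 ± 0.3 SE, limma adjusted p = 7.68e-05).

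Klf5, which promotes proliferation in many epithelia, lies at chr14:99298691-99313412. Its level was 0.62, 1.34, 1.71 and 0.81 in TG cerulein mice and -0.65, -1.1 and -1.24 in TG saline mice. It was 0.69, 1.44, 0.42 and 1.11 in WT cerulein mice and -1.58, -1.29, -1.32 and -1.49 in WT saline mice. All cerulein mice lay above the array's 75th percentile and all saline mice below it. Klf5 rose 4.34-fold in TG (2.12 ± 0.3 SE, limma adjusted p = 0.000685) and 5.05-fold in WT (2.34 ± 0.28 SE, limma adjusted p = 0.00012).

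Klf13, known in lymphocytes as an activator of the chemokine gene Ccl5, lies at chr7:63886351-63938915. Its level was 1.54, 0.97, 1.93 and 1.04 in TG cerulein mice and 0.13, 0.18 and 0.24 in TG saline mice. It was 1.48, 2.2, 1.1 and 0.94 in WT cerulein mice and 0.11, 0.29, 0 and 0.5 in WT saline mice. The groups were apart in both genotypes, by a smaller gap than for Klf5. Klf13 rose 2.27-fold in TG (1.18 ± 0.31 SE, limma adjusted p = 0.0335) and 2.3-fold in WT (1.2 ± 0.28 SE, limma adjusted p = 0.0156). The TG call was lost in 6 of the 15 fits that left out 1 array, those without TG cerulein mouse 13 or 15, TG saline mouse 2, 3 or 4, or WT saline mouse 6, with adjusted p up to 0.12. The WT call was lost without WT saline mouse 7 (adjusted p = 0.0563).

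Klf15, a glucocorticoid-responsive regulator of amino acid and glucose metabolism, lies at chr6:90461043-90491803 and was the one member called lower. Its level was 1.04, 1.95, 2.72 and 0.66 in WT cerulein mice and 2.98, 3.69, 3.86 and 3.82 in WT saline mice. In TG cerulein mice it was 2.92, 1.3, 1.93 and 1.07, against 2.88, 3.23 and 3.69 in TG saline mice. The WT groups were apart, and in TG 1 cerulein mouse (13) lay just above the lowest saline mouse. Klf15 fell by 2 on the log2 scale in WT (SE 0.46, limma adjusted p = 0.014), a level 3.99-fold lower. With slide in the model the WT difference was -1.7 ± 0.54 (SE) and the call was lost (limma adjusted p = 0.056). In TG the difference was -1.46 ± 0.5 (SE, limma adjusted p = 0.109), and it was called only without TG cerulein mouse 13 (-1.83, adjusted p = 0.0385).

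Klf4, which restrains proliferation in gut epithelium and is one of the reprogramming factors, lies at chr4:55527137-55532475. Its level was 1.82, 1.76, 2.26 and 1.46 in TG cerulein mice and 0.81, 0.56 and 0.66 in TG saline mice. It was 1.36, 2.08, 0.35 and 0.91 in WT cerulein mice and -0.18, 0.66, 0.93 and 0.85 in WT saline mice. The TG groups were apart and the WT groups overlapped. Klf4 was not called in TG (1.14 ± 0.37 SE, limma adjusted p = 0.0874) or in WT (0.61 ± 0.34 SE, limma adjusted p = 0.263). With slide in the model it was called higher in both, by 1.51 ± 0.24 (SE, limma adjusted p = 0.00133) in TG and 1.17 ± 0.24 (SE, limma adjusted p = 0.00732) in WT.

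Klf9, a target of thyroid hormone and glucocorticoid receptors, lies at chr19:23141226-23168129. Its level was 3.71, 3.72, 3.82 and 2.91 in TG cerulein mice and 3.01, 3.26 and 3.35 in TG saline mice. It was 3.42, 4.07, 3.18 and 3.29 in WT cerulein mice and 2.9, 3.32, 3.22 and 3.23 in WT saline mice. The groups overlapped in both genotypes, and the TG cerulein mouse on the slide without saline arrays was the lowest of all TG mice. The difference was 0.33 ± 0.27 (SE, limma adjusted p = 0.562) in TG and 0.32 ± 0.25 (SE, limma adjusted p = 0.412) in WT. With slide in the model Klf9 was called higher, by 0.6 ± 0.14 (SE, limma adjusted p = 0.0116) in TG and 0.74 ± 0.14 (SE, limma adjusted p = 0.0038) in WT.

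Klf10, a transforming growth factor beta inducible early gene at chr15:38291464-38300711, varied widely among cerulein mice. Its level was 1.47, 2.25, 2.43 and 2.85 in TG cerulein mice and 1.5, 1.56 and 1.48 in TG saline mice. It was 2.72, 2.87, 0.43 and 2.28 in WT cerulein mice and 1.07, 1.15, 1.55 and 1.65 in WT saline mice. In each cerulein group 1 mouse lay below all saline mice of its genotype and the other 3 lay above them. The difference was 0.74 ± 0.48 (SE, limma adjusted p = 0.452) in TG and 0.72 ± 0.45 (SE, limma adjusted p = 0.311) in WT. Without WT cerulein mouse 11, the low one, the WT difference was 1.27 and was called (limma adjusted p = 0.0205).

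Klf2, a flow-responsive factor of endothelium that also keeps T cells quiescent, and Klf3, a repressor that recruits the corepressor CtBP, were not called under either model. Klf2 was 1.61, 1.27, 2.23 and 1.73 in TG cerulein mice and 0.86, 1.16 and 1.15 in TG saline mice, groups that did not overlap, with a difference of 0.66 ± 0.37 (SE, limma adjusted p = 0.376). In WT it ranged from 1.06 to 2.45 after cerulein and from 1.01 to 2.26 after saline, and the groups overlapped (0.32 ± 0.35 SE, limma adjusted p = 0.549). The mean level of 8 endothelial markers was -0.03 to 0.15 in TG cerulein and 0.23 to 0.34 in TG saline arrays, and -0.16 to 0.43 in WT cerulein and 0.35 to 0.45 in WT saline arrays, and its part in the Klf2 values was not tested. Klf3 ranged from 2.42 to 3.15 in TG cerulein and 2.78 to 3.58 in TG saline mice, and from 2.19 to 3.71 in WT cerulein and 2.56 to 3.79 in WT saline mice. Its difference was -0.63 ± 0.39 (SE, limma adjusted p = 0.426) in TG and -0.55 ± 0.36 (SE, limma adjusted p = 0.344) in WT, and with slide in the model -0.22 in TG and 0 in WT.

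**Figure D2:**
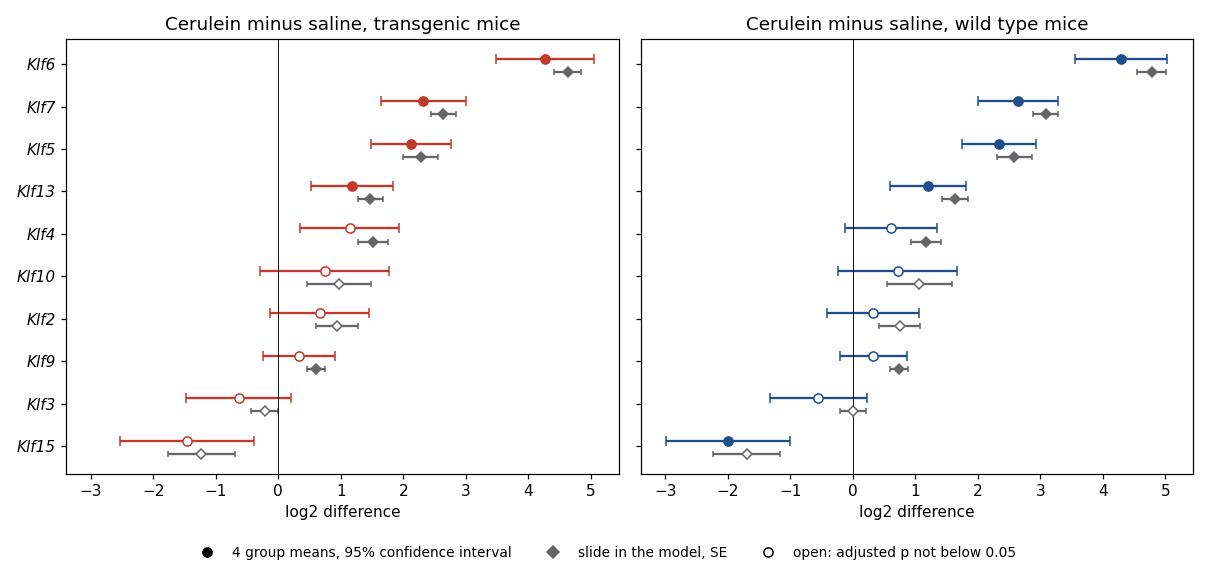
Log2 difference, cerulein minus saline, of the 10 transcripts in TG (left) and WT (right) mice, with circles and 95% confidence intervals from the 4 group means and diamonds and SE from the model with slide. Klf6 stands at 4.26 and 4.29, and filled markers show the calls, which with slide in the model also take in Klf4 and Klf9 and leave out Klf15.

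In the model with slide 6 members were called higher and 0 lower in each genotype, against 9.68% and 7.49% of all probes in TG and 8.76% and 5.82% in WT. Without regard to the test, the groups of 6 members in TG were apart with cerulein higher and of 0 with cerulein lower, against 7.71% and 11.6% of all probes. In WT the groups of 4 members were apart with cerulein higher and of 1 with cerulein lower, against 6.44% and 8.78%. Some mice stood at the edge of their group for many members: TG cerulein mouse 15 was the highest of its group for 8 of the 10 and WT cerulein mouse 10 for 9 of the 10, both on slide 3. WT cerulein mouse 11, on slide 2, was the lowest of its group for 7, and WT saline mouse 5, the one WT saline array on slide 1, for 8. TG saline mouse 2, the one TG saline array on slide 1, was the lowest of its group of 3 for 6. With 1 array per animal, animal and array cannot be told apart, and the part of the slide in these counts was not tested. Such counts were not made over all probes. Within slide 3 the Klf6 difference was 4.9 in TG and 4.8 in WT, and within slide 1 it was 4.17 and 4.9, where groups are often single arrays.

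The comparisons of TG with WT gave no called member. After cerulein 0 of the 10 were called, against 0.0616% of all probes called higher and 0% lower by limma, and 0 of the 10 had an unadjusted p below 0.05, against 6.95% of all probes. The largest difference was that of Klf4, 0.65 with a 95% confidence interval of -0.08 to 1.38 (limma adjusted p = 0.743), with 1.46 to 2.26 in TG cerulein and 0.35 to 2.08 in WT cerulein mice. Those of Klf6 (0.02, interval -0.71 to 0.74), Klf7 (0.15, -0.48 to 0.78) and Klf5 (0.21, -0.38 to 0.8) were nearer 0, and the intervals still allow differences in either direction.

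After saline 0 of the 10 were called by limma, against 0.0261% of all probes called higher and 0% lower, and 0 had an unadjusted p below 0.05, against 2.64% of all probes. Klf5 was -1.24 to -0.65 in TG saline and -1.58 to -1.29 in WT saline mice. Klf7 was 0.51 to 0.69 in TG saline and -0.35 to 0.36 in WT saline mice. In both, TG lay apart above WT, as in 3.25% of all probes (2.81% apart below), and the differences of 0.43 (interval -0.21 to 1.07) and 0.47 (-0.21 to 1.16) were not called. The difference between the genotypes' cerulein responses ran from -0.32 (Klf7) to 0.54 (Klf15, interval -0.92 to 1.99), with 0 called by limma among the 10, 0 at an unadjusted p below 0.05 (0.946% of all probes) and 0% of all probes called in either direction. Klf15, called in WT and not in TG, was thus not shown to respond differently in the 2 genotypes.

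**Figure D3:**
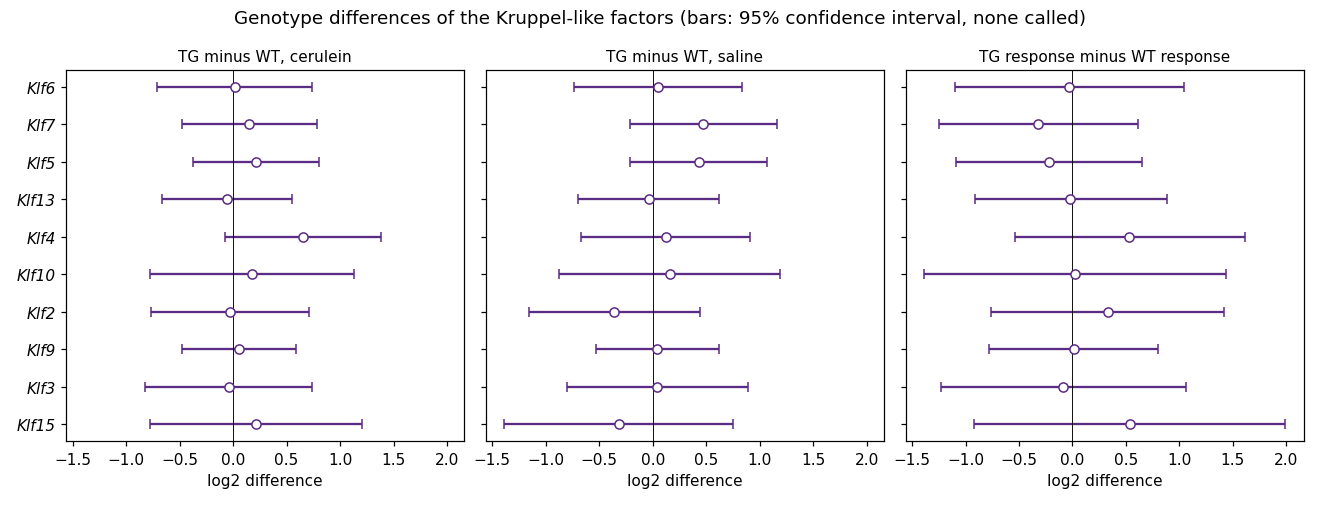
Log2 differences TG minus WT after cerulein (left) and after saline (middle), and TG response minus WT response to cerulein (right), for the 10 transcripts with 95% confidence intervals. Every interval includes 0, and the largest difference after cerulein is that of Klf4 at 0.65.

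Of the 7 other Kruppel-like factors measured, Klf8, a repressor that like Klf3 binds CtBP, was the one called. It rose by 1.98 ± 0.46 (SE, limma adjusted p = 0.0189) in TG and 2.41 ± 0.43 (SE, limma adjusted p = 0.00252) in WT, and the median of the 7 was 0.63 and 0.39. With slide in the model that median was -0.17 in TG and -0.31 in WT. Of 8 measured Sp genes, the closest relatives of the family, 0 were called in either genotype by the model without slide, with medians of 0.4 and 0.31, and with slide 2 were called higher in TG (Sp1 and Sp2) and 3 in WT (Sp1, Sp2 and Sp8). Klf16 was also called higher with slide in the model, by 0.93 in TG and 0.71 in WT. Genes called with slide in the model are named here after their values were seen. In that model 9.68% of all probes were called higher and 7.49% lower in TG, and 8.76% and 5.82% in WT. Of 16 genes known to act upstream of Kruppel-like factors, 2 rose and 1 fell in each genotype. Without slide 3.42% of all probes were called higher and 2.9% lower in TG, and 4.14% and 5.43% in WT. Srf, serum response factor, rose by 2.9 in TG and 2.91 in WT, and Mef2d, which controls Klf2 and Klf4 in endothelium together with its relatives, by 1.69 and 1.22. The third was Nr3c1, the glucocorticoid receptor, at -1.05 in TG and -1.3 in WT. In the model with slide 7 of the 16 were called higher in TG and 6 in WT, and 1 lower in each. Beside Srf and Mef2d these were Mapk7, Map3k3, Smad2 and Smad4 in both genotypes and Tgfbr1 in TG, with differences of 0.49 (Smad4 in WT) to 0.98 (Mapk7 in TG).

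Of 13 measured genes listed as targets of the family, 2 rose in each genotype, 0 fell in TG and 1 fell in WT. Over all probes 3.42% were called higher and 2.9% lower in TG, and 4.14% and 5.43% in WT. Cdkn1a, a cell cycle inhibitor activated by Klf4 and Klf6, rose by 3.44 in both, and Pdgfa, a growth factor gene activated by Klf5, by 1.11 in TG and 1.41 in WT. Ccnd1, cyclin D1, named because it was the one that fell, differed by -1.06 (limma adjusted p = 0.0259) in WT and -1.01 (limma adjusted p = 0.0603) in TG. The WT call was lost with slide in the model (-0.84, limma adjusted p = 0.0608). The medians of the 13 were -0.12 and -0.29. Of 12 cofactors and ubiquitin ligases of the family 0 were called in either genotype, and with slide in the model 2 were called higher in each, Ctbp1 and Ctbp2 in TG and Ctbp2 and Hdac2 in WT. With slide 9.68% of all probes were called higher in TG and 8.76% in WT. A count of 2 in so short a list was not tested against these shares. Ctbp2, whose product is the corepressor bound by Klf3 and Klf8, differed by 1.64 in TG and 1.76 in WT in that model.

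**Figure D4:**
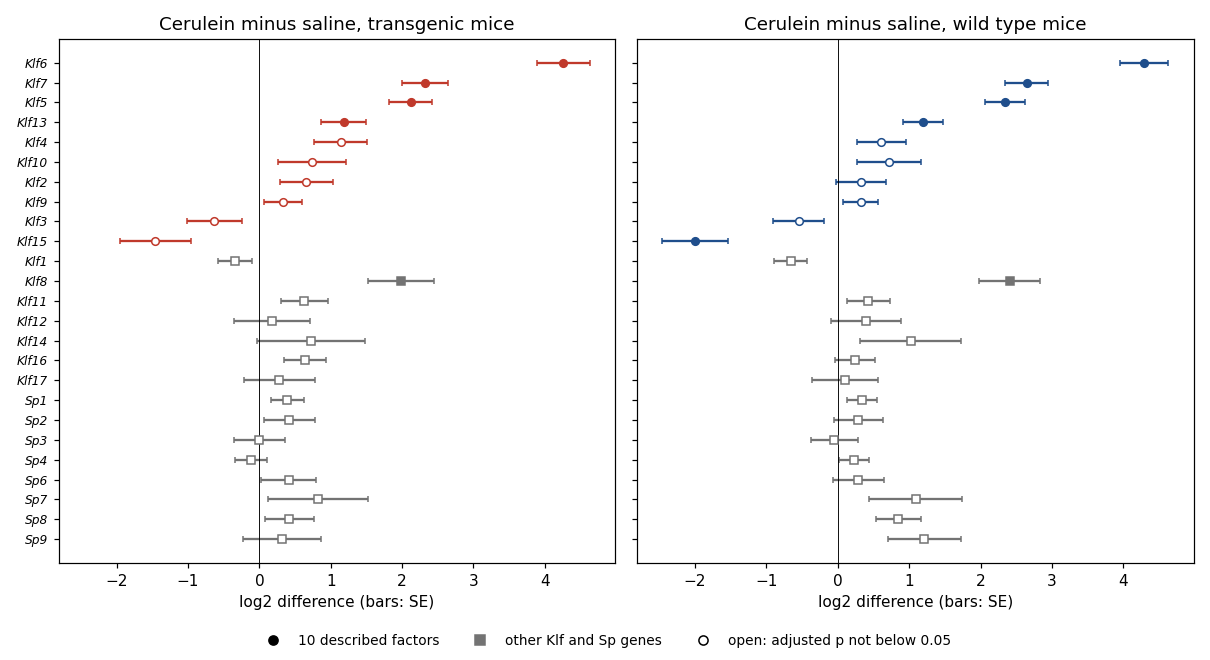
Log2 difference, cerulein minus saline, in TG (left) and WT (right) mice for the 10 described factors (circles) and the other Kruppel-like and Sp genes measured (squares), with SE bars and filled markers for calls. Klf8, at 1.98 in TG and 2.41 in WT, is the one filled square in each panel.

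Few cell type markers were called by the same test, and their part in the values of the Kruppel-like factors was not tested. For cerulein against saline that test called 3.42% of all probes higher and 2.9% lower in TG, and 4.14% and 5.43% in WT. After cerulein the acinar transcription factor gene Rbpjl was the one of 8 acinar markers called, lower in both genotypes. Of 6 duct markers Sox9 was the one called, lower in both. The duct median was 0.26 in TG and 0.33 in WT, the other way from Sox9. With slide in the model Krt19 was called higher, by 1.14 in TG and 1.36 in WT. Vil1 was the one of 4 measured intestinal epithelial markers called, higher in both, with Cdx2 and Cdh17 not above background on enough arrays. The median of the 4 was 0.35 in TG and 1.3 in WT, and with slide in the model -0.53 and -0.17. S100a8 and S100a9 were called higher in WT and 0 of the 7 measured neutrophil and monocyte markers in TG. The median of the 7 was -0.21 in TG and -0.02 in WT. After saline S100a9 was 3.89 and S100a8 3.37 higher in TG than in WT, differences that were not called. Nor was the difference between the genotypes in their cerulein response called. After cerulein against saline, 0 of 8 endothelial, 8 fibroblast and stellate, 8 lymphocyte, 7 islet and 6 adipocyte markers were called by limma without slide in the model. The mean of the fibroblast and stellate markers was 1.17 to 2.67 in TG cerulein and -0.25 to 0.94 in WT cerulein mice, and 1.35 to 2.01 in TG saline and 0.48 to 1 in WT saline mice, so that TG lay above WT after both treatments. Of these markers Lum, which encodes the matrix proteoglycan lumican, was called higher in TG than in WT after cerulein (2.53 ± 0.38 SE, limma adjusted p = 0.025), and the difference after saline was 1.7 ± 0.41 (SE, limma adjusted p = 0.775). With slide in the model 3 of the 8 were called higher in TG after cerulein, Lum by 2.51, Col1a2 by 1.82 and Dcn by 0.96. After saline 0 of the 8 were called in that model. The share of all probes called in these comparisons with slide is not given here.

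The members called in both genotypes varied together over the 15 arrays, which fall into cerulein and saline groups, so the correlations largely restate the treatment. Pearson's r was 0.979 between Klf6 and Klf7, 0.974 between Klf5 and Klf7 and 0.961 between Klf5 and Klf6 over 15 arrays, while Klf13 correlated with the 3 at 0.878 to 0.933. Among the 17339 genes with a kept probe, the pattern most like that of Klf6 was that of Fbxo30 (r = 0.993) and Dusp8 (0.989), and most like Klf7 was that of Zyx (0.992) and Chml (0.99). The nearest to Klf5 were Srxn1 (0.988) and Fam83h (0.984), and the nearest to Klf13 were Tnip2 (0.977) and Actn1 (0.971).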

How the data were processed

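Whole pancreas RNA was hybridised to 15 one-colour Agilent arrays, 1 per animal. The deposited scanner values are spot intensity values written by the authors' Agilent Feature Extraction software (version 10.7.3.1 in the headers), which subtracts background and spatial trends within an array and adjusts nothing between arrays. The flag columns (another unit, 0 or 1 per spot) were deposited beside them. The deposited series table holds log2 values normalised between arrays by the authors, how is not given in the sources used here, and served as an alternative.

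Control spots were left out, which left 59305 spots per array, and spots flagged as outliers were dropped. Then log2 intensity minus the array's 75th percentile was averaged per probe, and 42187 of 55681 probes well above background on at least 3 arrays were kept. Accessions were matched to RefSeq symbols for 27235 probes. The tests were those of limma 3.58.1 (R 4.3.3, data.table version 1.17.8) on the 4 group means of all 15 arrays, leaving 11 residual degrees of freedom, with two-sided tests and Benjamini-Hochberg adjustment over probes in each of 5 comparisons. The fit was tested on simulated data for cerulein against saline in WT only. The simulated noise was independent between probes and held no slide effect, so the handling of slide was not tested. Figures were drawn with matplotlib 3.10.9 in Python 3.11.15. Alternatives were normexp background correction, quantile normalisation, the deposited log2 values, other filters, slide as a block, leaving out slide 2, a single probe per gene and leaving out each array. The normexp alternative used the median spot signal in place of the mean, which the scanner tables used here do not hold. Leaving out each array with slide in the model was added after seeing the data.

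The 10 members, the related gene lists, the markers and the motifs were chosen with earlier results of these data known. All 10 members are described; by rule the other genes named are, in each cerulein comparison, the 2 called members of largest change in each related list, the 2 genes most correlated with each member called in both genotypes, and Btc. Ccnd1, the cell type markers and the genes called only with slide in the model were named after their values were seen. P-values measure the spread between animals, and the number of arrays limits the precision.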

Additional observations from a re-analysis of the deposited data

Results flagged for a closer look

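Of 30 groups of 4 animals examined among the 10 genes, 2 had an animal far from the other 3 by Dixon's ratio, and chance marks about 1 in 20 groups. For Klf9 in TG cerulein mice, mouse 16 stood at 2.91 and the other 3 at 3.71 to 3.82. This mouse was the one TG cerulein array on slide 2. For Klf6 in WT saline mice, mouse 5 stood at 1.2 and the other 3 at 2.28 to 2.49. This was the one WT saline array on slide 1. Whether slide or animal sets these values cannot be told apart.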

How the results depend on the processing

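In each of the 8 tested alternatives that kept all arrays or left out a whole slide, and in all 30 fits that left out 1 array with or without slide in the model, Klf5, Klf6 and Klf7 were called higher after cerulein in both genotypes. Klf13 was called in the same 8 alternatives, with the losses given above. The number of members called higher ran from 3 to 7 in TG and from 3 to 7 in WT when 1 array was left out, and the number called lower from 0 to 1 in each. With slide in the model and all 15 arrays kept, the number called lower in WT was 0. In the 15 fits with slide that left out 1 array, Klf15 in WT was called in 3. Klf4 in TG was also called under quantile normalisation (limma adjusted p = 0.0446), in the deposited table (0.035) and without slide 2 (0.0365), Klf9 in WT under quantile normalisation (0.0258) and Klf10 in WT without slide 2 (0.013). The median of all probes moved under normexp to -0.25 in TG, against -0.04, and to -0.25 in WT, against 0.04, and the share of calls that were higher was 32.1% against 54.1% in TG and 21.3% against 43.3% in WT. That share was 60.1% in WT with slide in the model, and the medians were -0.15 and -0.12.

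Differences between genotypes were not called under any setting, and the signs of many turned. Under normexp the response difference was 0.01 for Klf6 and -0.05 for Klf9. Under quantile normalisation TG minus WT after cerulein was -0.14 for Klf6 and -0.04 for Klf9, and the response difference was -0.11 for Klf9 and -0.02 for Klf10. In the deposited table the response difference of Klf9 was -0.01. With slide in the model TG minus WT after cerulein was -0.04 for Klf6 and -0.08 for Klf9, and the response difference was -0.15 for Klf9 and -0.09 for Klf10. Without slide 2 TG minus WT after cerulein was -0.11 for Klf6, -0.3 for Klf7 and -0.75 for Klf10, and the response difference was -0.22 for Klf2, -0.03 for Klf9 and -0.9 for Klf10. With 1 array left out, TG minus WT after cerulein ranged from -0.52 to 0.21 for Klf2, -0.31 to 0.29 for Klf3, -0.03 to 0.38 for Klf5, -0.2 to 0.29 for Klf6, -0.21 to 0.42 for Klf7, -0.24 to 0.26 for Klf9, -0.7 to 0.46 for Klf10, -0.29 to 0.2 for Klf13 and -0.17 to 0.64 for Klf15. After saline it ranged from -0.19 to 0.3 for Klf3, -0.14 to 0.32 for Klf4, -0.25 to 0.3 for Klf6, -0.05 to 0.14 for Klf9 and -0.14 to 0.08 for Klf13. The response difference ranged from -0.19 to 0.57 for Klf2, -0.42 to 0.25 for Klf3, -0.47 to 0.06 for Klf5, -0.33 to 0.27 for Klf6, -0.3 to 0.22 for Klf9, -0.88 to 0.28 for Klf10 and -0.28 to 0.24 for Klf13. The cerulein difference of Klf3 in WT, not called, ranged from -0.88 to 0.12. The cause of these changes was not tested. No paired analysis was possible because the labels number the animals separately and no number is shared between groups.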
